A study of Danio rerio with 4 samples.

Results

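The translation initiation factor genes were taken as the genes of the count files whose symbol begins with eif1 to eif6, in either case. There were 66 of them among 31953 gene IDs, of which 26121 had a symbol, and they were sorted by symbol into 15 factor groups. Of the 66, 65 had at least 1 count, and EIF2AK4, the gene of the amino acid-sensing eIF2 kinase, had none in any library. The material was whole zebrafish embryos collected 24 h after fertilisation. Polyadenylated RNA of wild-type embryos and of ddx39a mutants was sequenced (RNA-seq), and RIP-seq was run under the same pair of genotype labels, giving 4 libraries and 1 library in each group. RIP-seq is sequencing of RNA recovered together with a tagged protein, here DDX39A, a DEAD-box RNA helicase known for roles in splicing and mRNA export. The protocol for both RIP-seq libraries describes ddx39a-Flag mRNA injected into mutant embryos at the start of development and recovery on anti-Flag beads, whereas the genotype labels differ. Both are therefore named by their label here, and neither is taken as a mock. The sources used here name neither the mutant allele nor the number of embryos pooled in a library.

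Initiation factors bring the small ribosomal subunit, the initiator tRNA and the mRNA together. As background, eIF2 carries the initiator tRNA as a complex with GTP and is recharged by eIF2B, and the eIF2 kinases shut this cycle down under stress. eIF1, eIF1A and the large eIF3 complex sit on the small subunit while it scans, and eIF4F, made of the cap-binding eIF4E, the scaffold eIF4G and the helicase eIF4A, brings in the mRNA. The 4E-binding proteins keep eIF4E away from eIF4G, eIF5 and eIF5B close the process by triggering GTP hydrolysis and joining of the large subunit, and eIF6 keeps free large subunits apart from small ones. eIF4A and DDX39A belong to the same family of DEAD-box helicases, and eIF4A3 is a core subunit of the exon junction complex that splicing leaves on mRNA.

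With 1 library per group there is no replicate error, so no p-value was computed and each comparison is between libraries. The intervals in parentheses are 95% exact conditional binomial intervals for the ratio of scaled counts, and they cover counting error only. A gene is called higher or lower when its ratio was at least 2-fold and its interval excluded equality. RNA-seq libraries held 9533101 to 9922182 reads counted to genes and RIP-seq libraries 1966053 to 2246938, and the 5 leading features took 4.08 to 4.15% and 69.5 to 75.5% of these. Initiation factor genes took 1.38% and 1.44% of the counts in wild-type and mutant RNA-seq, and 0.358% and 0.364% in RIP-seq with the wild-type and the mutant label. Of the 2 genes with the symbol DDX39A, ENSDARG00000015111 was 5.31-fold lower (4.9 to 5.76) and ENSDARG00000006225 1.06-fold higher (1.0 to 1.12) in mutant RNA-seq. The table of symbols does not say which of them carries the mutation. Tissue markers of the embryo (muscle, blood, epidermis, neural, endothelium, hatching gland, notochord, yolk layer and germ cells) were detected in both RNA-seq libraries. Their summed counts in mutant over wild type ranged from 0.484 for fast muscle and 0.547 for red cells to 1.1 for neural markers. The proliferation list stood at 0.963, and the part of tissue makeup in the initiation factor values was not tested.

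**Figure D1:**
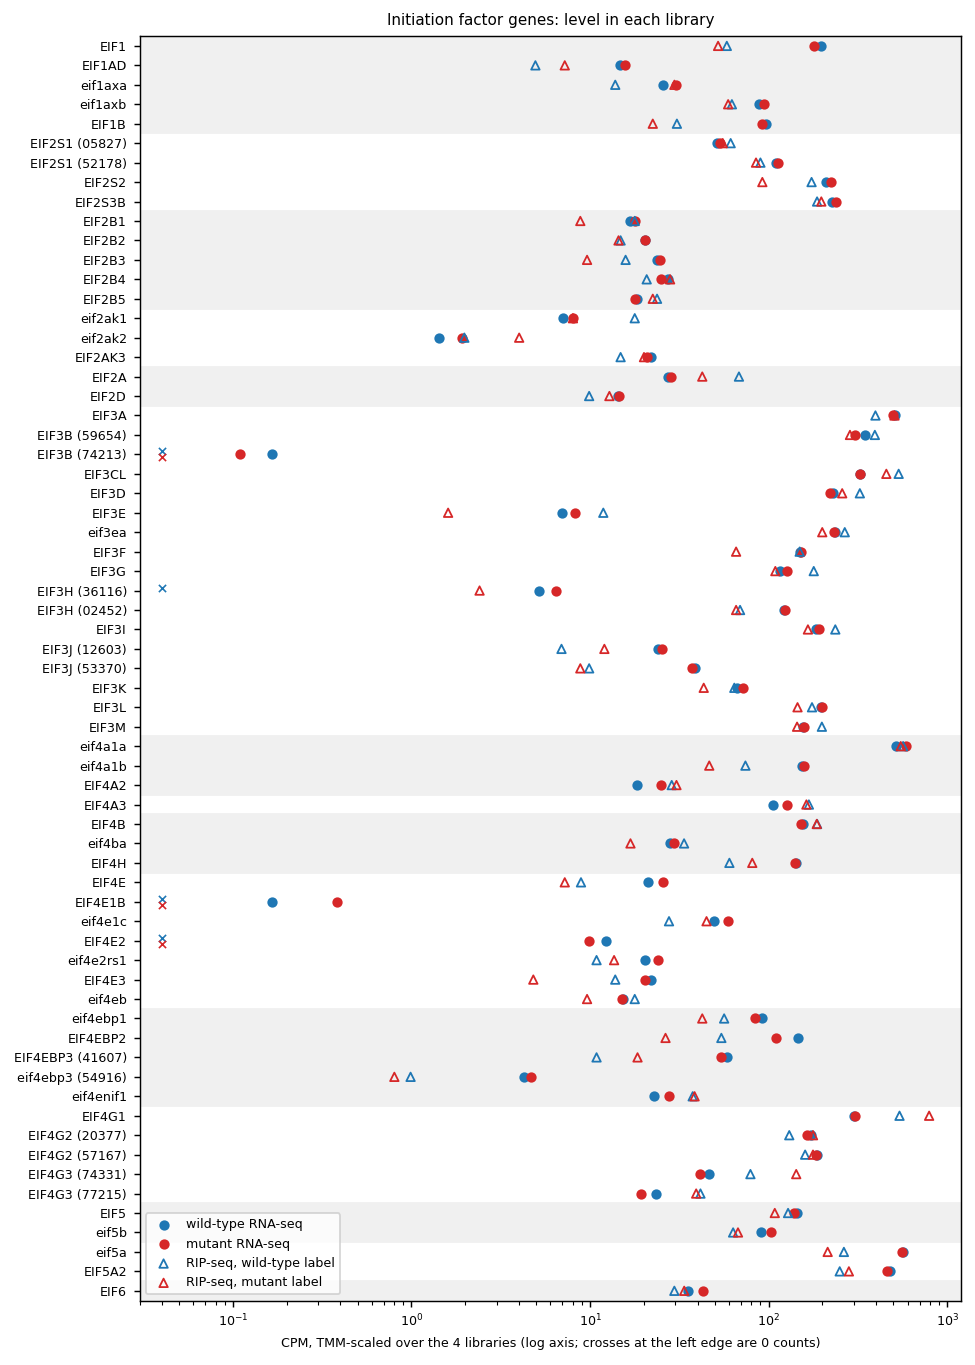
Level of each initiation factor gene with at least 1 count, in CPM scaled over the 4 libraries (log axis), with genes grouped by factor and the last 5 digits of the gene ID where a symbol has several genes. Circles are RNA-seq, triangles RIP-seq, blue the wild-type label and red the mutant label, and crosses at the left edge mark 0 counts. The 2 RNA-seq points of a gene lie close together, while the RIP-seq points scatter around them, at 0 counts for EIF4E2 and above for EIF4G1. Levels of different genes are not corrected for length.

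In RNA-seq, initiation factor genes were at nearly the same level in the mutant and the wild-type library. Among the 63 members that reached 1 CPM (counts per 1e+06 counted reads, scaled) in at least 1 of the 2 libraries, none was called higher or lower, against 2.16% of all genes called higher and 2.6% called lower. For 58 of the 63 the whole interval lay within 1.5-fold of equality, which held for 47.2% of all genes compared. Intervals narrow with counts, and the median wild-type level was 125 CPM for members and 13.6 CPM for all genes compared. The median log2 ratio was 0.03 over the members and 0.00 over all genes, and single members ran from -0.40 to 0.45 on the log2 scale. The summed counts of all members were 1.0 (0.995 to 1.01) times those of wild type after scaling. A whole-embryo library cannot tell fewer cells of a type from less RNA per cell, and this holds for every value below.

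Within this narrow range, 13 members had intervals above equality and 11 below, or 20.6% and 17.5% of the members, against 13.6% and 15.2% of all genes. All 13 stayed above equality under each of the 5 other scalings tried, and 4 of the 11 stayed below. These scalings left the ratios of this pair unchanged or raised them, by up to 0.06 on the log2 scale. An interval above equality could therefore not be lost, and these counts do not compare the stability of the sides. With total-count scaling the split became 22 above and 4 below, and among all genes 3565 above and 2151 below. Upper-quartile factors gave 15 above and 8 below, and among all genes 2674 above and 2756 below. The sizes described next are at most 1.36-fold, and each rests on a single library on either side.

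The members on the higher side in mutant RNA-seq included the genes of eIF4A and eIF4E. EIF4A2, a helicase subunit of eIF4F, had 334 and 456 counts in wild type and mutant and was 1.36-fold higher (1.18 to 1.57). The more heavily counted helicase gene eif4a1a had 9384 and 10648 counts and was 1.13-fold higher (1.1 to 1.16). Its copy eif4a1b, with 2782 and 2856 counts, had an interval that included equality, at 1.03-fold higher (0.973 to 1.08). All 3 eIF4A genes were thus on the same side, 2 of them with intervals above equality, and their summed ratio was 1.12 (1.09 to 1.14). EIF4A3, of the exon junction complex, had 1921 and 2306 counts and was 1.2-fold higher (1.13 to 1.27).

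Of the 6 eIF4E genes compared, 3 had intervals above equality and 1 below. EIF4E, the canonical cap-binding protein, had 386 and 467 counts and was 1.21-fold higher (1.05 to 1.39), and eif4e1c, a cap-binding form found in fish, had 895 and 1072 counts and was 1.2-fold higher (1.09 to 1.31). EIF4E2, whose product binds the cap but not eIF4G in mammals, went the other way with 223 and 179 counts, 1.25-fold lower (1.02 to 1.53), while its relative eif4e2rs1 had 367 and 436 counts and was 1.19-fold higher (1.03 to 1.37). The interval of EIF4E2 reached equality with total counts, taken with or without the leading features. EIF4E3 with 399 and 369 counts and eif4eb with 277 and 276 counts had intervals that included equality. The germline form EIF4E1B had only 3 and 7 counts and was not compared.

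Of the 5 genes in the 4E-binding group, 2 had intervals below equality and 1 above. EIF4EBP2 had the lowest ratio of the 63 members, with 2653 and 2011 counts, 1.32-fold lower (1.25 to 1.4), and it stayed below equality under each scaling. The gene eif4ebp1 had 1663 and 1533 counts and was 1.09-fold lower (1.01 to 1.17), reaching equality with total counts, and the gene EIF4EBP3 (ENSDARG00000041607) had 1060 and 986 counts with a ratio whose interval included equality. Against these, eif4enif1, whose product carries eIF4E into the nucleus, was higher, with 416 and 507 counts, 1.22-fold higher (1.07 to 1.39). Set against eIF3 without any scaling, the odds ratio of the summed counts was 0.883 (0.848 to 0.918) for the 4E-binding group and 1.11 (1.05 to 1.18) for the eIF4E group. The summed counts of the cap-binding genes and of the 4E-binding group lay on opposite sides of eIF3 in this pair of libraries. The summed 4E-binding counts were 5870 and 5122, and most of their fall was that of EIF4EBP2 alone, from 2653 to 2011. The value of this group therefore rests mainly on 1 gene.

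Of the 5 genes of the eIF4G scaffold, 3 had intervals below equality and none above. Of these 3, EIF4G3 (ENSDARG00000077215) alone stayed below under each scaling, while the others reached equality with total counts, taken with or without the leading features. EIF4G1 had 5469 and 5521 counts and was 1.01-fold higher (0.971 to 1.05). The 2 genes with the symbol EIF4G3 were lower, ENSDARG00000077215 with 426 and 350 counts at 1.22-fold lower (1.06 to 1.41) and ENSDARG00000074331 with 844 and 752 counts at 1.12-fold lower (1.02 to 1.24). EIF4G2, the symbol of a scaffold that lacks the eIF4E site, is carried by 2 genes. ENSDARG00000020377 had 3148 and 2986 counts and was 1.06-fold lower (1.0 to 1.11), and ENSDARG00000057167 had 3373 and 3355 counts with an interval that included equality. The eIF4A cofactors EIF4B, eif4ba and EIF4H all had intervals that included equality.

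The eIF3 complex, with 17 genes the largest group, stayed close to equality. Of the 16 genes compared, 14 had whole intervals within 1.5-fold, 1 had an interval above equality and 3 below, and the summed ratio was 0.987 (0.975 to 1.0). EIF3A, the scaffold subunit of the complex, had 9330 and 8995 counts and was 1.04-fold lower (1.01 to 1.07). EIF3B (ENSDARG00000059654), which binds it, had 6266 and 5569 counts and was 1.13-fold lower (1.09 to 1.17), below equality under each scaling. EIF3A and EIF3D, the other genes below, reached equality with total counts, taken with or without the leading features. EIF3D did so with DESeq2 size factors and with upper-quartile factors too. EIF3G, an RNA-binding subunit, was the member above equality, with 2104 and 2304 counts, 1.09-fold higher (1.03 to 1.16). Against the other eIF3 genes summed, which needs no scaling, EIF3B stood at an odds ratio of 0.886 (0.852 to 0.921), and EIF3G, EIF3I and EIF3K stood above 1 at 1.11 (1.05 to 1.18), 1.05 (1.0 to 1.11) and 1.1 (1.01 to 1.19). A second EIF3B gene, ENSDARG00000074213, had 3 and 2 counts in RNA-seq and none in RIP-seq and was not compared.

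The genes of initiator tRNA delivery differed as little. For eIF2, EIF2S2 with 3792 and 4063 counts was 1.07-fold higher (1.02 to 1.12), EIF2S3B with 4138 and 4336 counts was 1.05-fold higher (1.0 to 1.09), and both EIF2S1 genes had intervals that included equality. The 5 eIF2B genes, which encode the exchange factor for eIF2, had 303 to 498 counts in wild type and 323 to 455 in the mutant, and none had an interval away from equality. The eIF2 kinases eif2ak1 (heme-sensing, 128 and 147 counts), eif2ak2 (sensing double-stranded RNA, 26 and 35 counts) and EIF2AK3 (sensing endoplasmic reticulum stress, 398 and 378 counts) had intervals that included equality. For 2 of these 3 kinase genes the whole interval lay within 1.5-fold. EIF2A and EIF2D, which can bring the initiator tRNA without eIF2 in mammalian systems, had 496 and 519 counts and 259 and 265 counts.

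Among the remaining factors, EIF1, which guards start codon choice, had 3566 and 3254 counts and was 1.1-fold lower (1.05 to 1.15). The eIF1A gene eif1axa had 466 and 551 counts and was 1.18-fold higher (1.04 to 1.34). The subunit-joining GTPase gene eif5b had 1654 and 1869 counts and was 1.13-fold higher (1.06 to 1.21), while EIF5, the activator of the eIF2 GTPase, had 2622 and 2510 counts and an interval that included equality. EIF6 had 642 and 781 counts and was 1.21-fold higher (1.09 to 1.35). The eIF5A genes, whose product is known for its role in elongation and carries the amino acid hypusine, had ratios close to equality. The gene eif5a had 10343 and 10162 counts at 1.02-fold lower (0.992 to 1.05), and EIF5A2 had 8710 and 8423 counts at 1.04-fold lower (1.0 to 1.07). The EIF5A2 interval reached equality with total counts, taken with or without the leading features, and with upper-quartile factors.

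**Figure D2:**
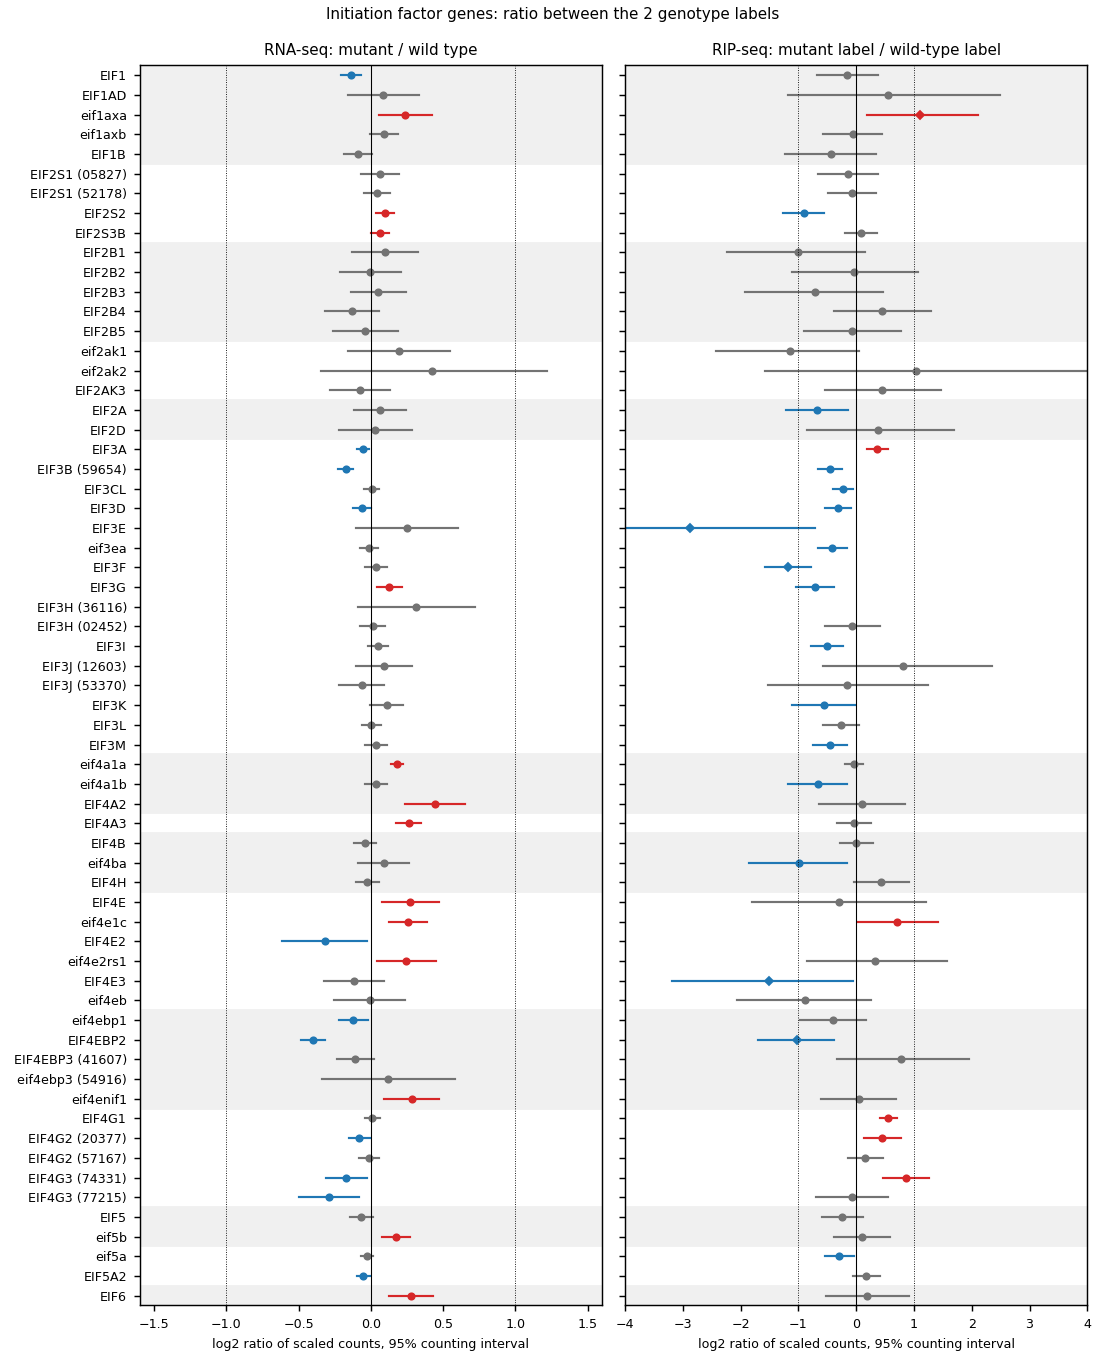
Log2 ratio of scaled counts between the 2 genotype labels for each initiation factor gene compared, in RNA-seq (left) and RIP-seq (right), with 95% counting intervals. Red and blue mark intervals above and below equality, diamonds mark called genes, and dotted lines mark 2-fold; the x scales differ, the intervals of EIF3E and eif2ak2 run off the right panel, and EIF4E2, eif4ebp3 and the minor EIF3H copy, not compared or with 0 counts, are not drawn there. All 63 RNA-seq points lie between -0.40 and 0.45, whereas in RIP-seq most eIF3 genes lie left of equality and most eIF4G genes right of it.

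Between the RIP-seq libraries of the 2 labels, the ratios of all genes spread more widely than in RNA-seq, and so did those of initiation factors. Among genes of at least 5 CPM the interquartile range of the log2 ratio went from 0.35 to 1.12 for all genes and from 0.17 to 0.68 for members, whose summed counts were 137142 and 137728 in RNA-seq but 7029 and 8175 in RIP-seq. The scaffold genes EIF4G1 and EIF4G3 (ENSDARG00000074331) had higher ratios with the mutant label, and most eIF3 genes lower ones. Of 61 members compared, 1 was called higher and 4 lower, against 8.37% and 5.3% of all genes, so the share called lower, 6.56%, was close to that background. Intervals lay above equality for 6 members and below for 17, or 9.84% and 27.9%, against 11.2% and 8.93% of all genes. The median level with the wild-type label was 32.1 CPM for members and 4.74 CPM for all genes, so these shares are not at equal precision. The median log2 ratio was -0.07, beside -0.06 over all genes. With total counts taken without the 5 leading features of each library the split became 2 above and 23 below, and with all total counts 8 above and 12 below. Among all genes the split went from 1764 above and 1407 below to 1329 and 2219 without the leading features. With all total counts it was 2069 and 1138, so the split of all genes moved too.

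The eIF4G genes had the highest summed ratio of the 15 factor groups in the RIP-seq pair, at 1.4 (1.3 to 1.52). EIF4G1 had 547 and 988 counts with the wild-type and the mutant label and was 1.47-fold higher (1.33 to 1.64). EIF4G3 (ENSDARG00000074331) had 80 and 178 counts and was 1.82-fold higher (1.39 to 2.39). Both kept intervals above equality under each scaling. EIF4G2 (ENSDARG00000020377) had 132 and 221 counts, 1.37-fold higher (1.1 to 1.71), and reached equality under the scaling that leaves out the leading features. The other EIF4G2 gene, with 162 and 221 counts, and the other EIF4G3 gene, with 42 and 49 counts, had intervals that included equality. Against the summed eIF3 counts, eIF4G stood at an odds ratio of 1.7 (1.55 to 1.87), a value that uses no scaling factor. The odds ratio also takes in the eIF3 counts, whose own summed ratio was 0.824 (0.784 to 0.867) after scaling. In RNA-seq the same odds ratio was 0.989 (0.962 to 1.02).

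Within eIF3, 10 of the 16 genes compared had intervals below equality and 1, EIF3A, above. EIF3F, a subunit with a deubiquitinase-like fold, had 151 and 82 counts and was 2.26-fold lower (1.71 to 2.99). EIF3G had 181 and 136 counts and was 1.63-fold lower (1.3 to 2.05), and EIF3B (ENSDARG00000059654) had 398 and 356 counts and was 1.37-fold lower (1.18 to 1.59). The minor subunit e gene EIF3E (ENSDARG00000002549) was called lower from 12 and 2 counts, 7.35-fold lower (1.64 to 67.6). EIF3A had 401 and 632 counts and was 1.29-fold higher (1.13 to 1.46), an interval that reached equality when the leading features were left out of the totals. EIF3CL and EIF3D reached equality with total counts, and EIF3K with total counts and with DESeq2 size factors. Set against the other eIF3 genes summed, EIF3A stood at an odds ratio of 1.71 (1.48 to 1.96), EIF3F at 0.525 (0.394 to 0.695) and EIF3G at 0.732 (0.578 to 0.926), and no other of the 14 eIF3 genes with at least 20 counts had an interval away from 1. EIF3A, EIF3F and EIF3G thus departed from the other eIF3 genes between the 2 RIP-seq libraries. These intervals cover counting error only, with 1 library per label. For eIF3 the median log2 ratio was -0.36, beside -0.39 for 80 cytoplasmic ribosomal protein genes, the other large set of the translation machinery.

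The other called members of the RIP-seq pair rested on few counts. The gene eif1axa had 14 and 37 counts and was 2.16-fold higher (1.14 to 4.32), a call lost when the leading features were left out of the totals. EIF4E3, an atypical cap-binding protein, had 14 and 6 counts and was 2.86-fold lower (1.03 to 9.08), a call lost with total counts. EIF4EBP2 had 55 and 33 counts and was 2.04-fold lower (1.3 to 3.25), a call lost with total counts and with DESeq2 size factors, though its interval stayed below equality. EIF2S2, the beta subunit of eIF2, had 176 and 115 counts and was 1.88-fold lower (1.47 to 2.39), just under the 2-fold size, whereas EIF2S3B had 189 and 246 counts and an interval that included equality. EIF2A had 69 and 53 counts and was 1.6-fold lower (1.1 to 2.33). The eIF4A genes did not share a direction, with eif4a1a level at 573 and 685 counts and eif4a1b at 75 and 58 counts, 1.58-fold lower (1.11 to 2.27).

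For each label, scaled RIP-seq counts were then divided by scaled RNA-seq counts, to see which initiation factor mRNAs stood higher or lower in RIP-seq after scaling. The 2 assays differ in RNA content as well as in recovery, and these cannot be told apart. Ratios also depend strongly on the scaling here, with 5 features holding 69.5 to 75.5% of the RIP-seq counts: total counts moved the median log2 ratio of all genes by -1.90 under the wild-type label and by -1.88 under the mutant one. With total-count scaling, which compares plain shares of the counts, no member was called higher and 59 lower under each label. Values are therefore also given relative to the median of all genes compared, or as odds ratios against eIF3, which use no scaling factor. Where a pair of values follows, the wild-type label comes before the mutant label unless the sentence says otherwise. Of 63 members compared, 13 were called lower and 2 higher with the wild-type label, against 14.1% and 9.01% of all genes. With the mutant label 18 were called lower and 3 higher, against 16.2% and 13.8% of all genes. The members called lower were 20.6% and 28.6%, and 11 genes were called lower under both labels, which is 11 of the 13 and 11 of the 18. These 11 were EIF1, EIF1B, EIF1AD, both EIF3J genes, eif4a1b, EIF4E, EIF4E2, EIF4EBP2, EIF4EBP3 (ENSDARG00000041607) and eif5a. Intervals lay above equality for 16 members and below for 25 with the wild-type label, beside 15% and 18.4% of all genes, and for 9 and 32 with the mutant label, beside 19.3% and 21.4%. With upper-quartile factors these became 18 and 18, and 11 and 26. The split of all genes moved upward as well. It went from 2606 above and 3201 below to 3216 and 2549 in the wild-type pair. In the mutant pair 3422 above and 3787 below became 3872 and 3163. The even split of 18 and 18 therefore stands beside more genes above than below among all genes. No member was called higher under both labels and none was called in opposite directions. The overlap of calls between labels was not counted over all genes, so it is not shown to be particular to the members. The members' median lay -0.15 and -0.26 from that of all genes on the log2 scale with the wild-type and the mutant label. These distances were -0.08 and -0.17 with total counts, and -0.39 and -0.51 with no filter beyond 1 count in the pair. With upper-quartile factors the first became -0.22. Across the 63 members the log2 ratios under the 2 labels had a Spearman correlation of 0.74, against 0.52 over 16580 genes compared under both labels. Points of a label share both of its libraries, so these are descriptions. In both assays the median member was counted more heavily than the median gene, as given above. The shares and correlations set against all genes here are therefore not at equal precision.

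**Figure D3:**
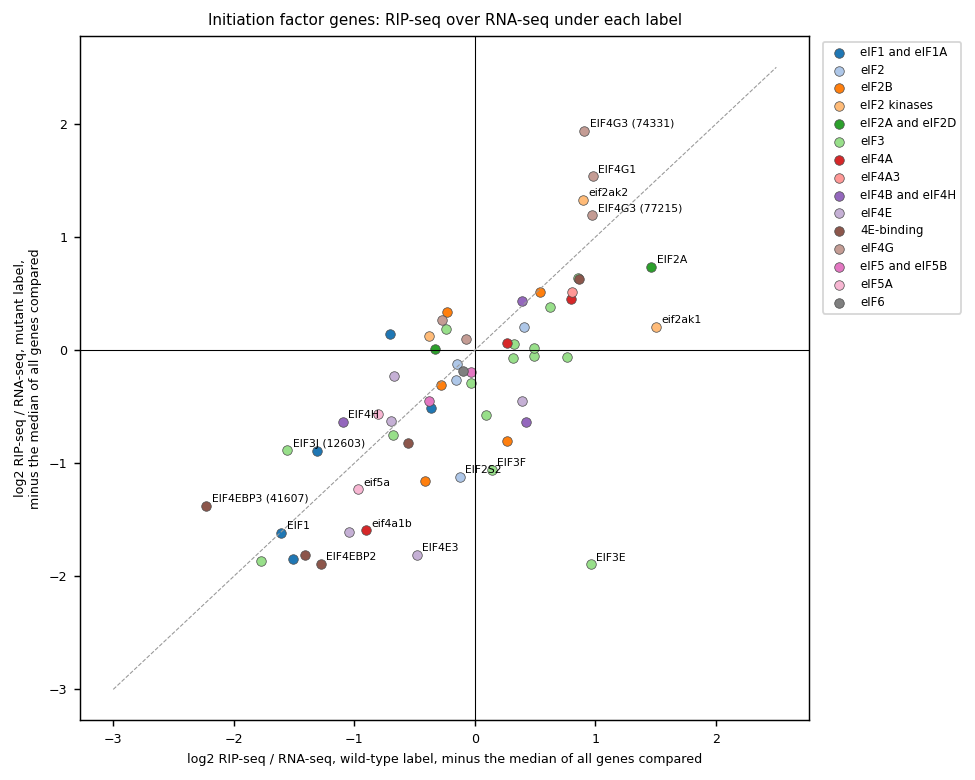
Log2 ratio of RIP-seq to RNA-seq counts for initiation factor genes, minus the median of all genes compared, with the wild-type label (x) and the mutant label (y), coloured by factor group; the dashed line marks equal values and lines at 0 mark the median of all genes. EIF4G1 and both EIF4G3 genes lie at the upper right with eif4enif1, the EIF4G2 genes near the centre, and EIF1, EIF1B, EIF4EBP2 and both eIF5A genes at the lower left. EIF4E2 and the minor EIF3H copy, with 0 counts in at least 1 RIP-seq library, are not drawn.

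The higher side held the eIF4G scaffold. EIF4G1 had 547 RIP-seq counts against 5469 in RNA-seq under the wild-type label, and under the mutant label it had 988 against 5521. Relative to all genes it stood at 0.98 and 1.53 on the log2 scale, and it was 1.8-fold higher (1.64 to 1.96) in RIP-seq under the first label, 2.63-fold higher (2.46 to 2.82) under the second. EIF4G3 (ENSDARG00000074331) was at 0.91 and 1.94, and was 1.7-fold higher (1.34 to 2.14), respectively 3.48-fold higher (2.94 to 4.11). The other EIF4G3 gene was at 0.97 and 1.19. These 3 were the members called higher with the mutant label, and the EIF4G2 genes, for the scaffold without an eIF4E site, stayed between -0.27 and 0.26 relative to all genes. Against eIF3, the eIF4G group stood at odds ratios of 1.17 (1.09 to 1.27) and 2.02 (1.9 to 2.16). The summed eIF3 counts themselves stood at 1.11 (1.07 to 1.15) and 0.929 (0.896 to 0.964) after scaling, so part of the difference between labels lies in eIF3. With total-count scaling all 3 calls were lost, and the second EIF4G3 call was also lost when the leading features were left out of the totals.

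With the wild-type label, the 2 called higher were EIF2A and eif2ak1. EIF2A had 69 RIP-seq counts against 496 in RNA-seq and was 2.5-fold higher (1.91 to 3.22); with the mutant label it had 53 against 519 and was 1.5-fold higher (1.11 to 2.0), short of the size rule. The heme-regulated kinase gene eif2ak1 had 18 against 128 counts, 2.53-fold higher (1.45 to 4.16), and 10 against 147 with the mutant label, where the ratio was 1.00 with an interval of 0.470 to 1.89. EIF4A3 of the exon junction complex had 170 against 1921 and 203 against 2306 counts, 1.59-fold higher (1.35 to 1.86) and 1.3-fold higher (1.12 to 1.5). Its odds ratios against eIF3 were 1.43 (1.21 to 1.68) and 1.39 (1.2 to 1.62), both above 1.

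On the lower side were members of the eIF1 and eIF1A group, of the 4E-binding group and of eIF5A, though not all of them. In these groups eif1axa, eif1axb, eif4ebp1 and EIF5A2 were called under neither label. EIF1 had 59 RIP-seq counts against 3566 in RNA-seq and 65 against 3254, 3.36-fold lower (2.6 to 4.43) and 3.4-fold lower (2.66 to 4.42), and its relative EIF1B had 31 against 1766 and 28 against 1662, 3.17-fold lower (2.23 to 4.68) and 4.03-fold lower (2.78 to 6.09). The group of eIF1 and eIF1A stood at odds ratios of 0.363 (0.309 to 0.424) and 0.452 (0.390 to 0.520) against eIF3. EIF4EBP2 had 55 against 2653 and 33 against 2011 counts, 2.68-fold lower (2.06 to 3.57) and 4.14-fold lower (2.94 to 6.03). EIF4EBP3 (ENSDARG00000041607) had 11 against 1060 and 23 against 986 counts, 5.36-fold lower (2.98 to 10.8) and 2.91-fold lower (1.93 to 4.62). The 4E-binding group as a whole stood at 0.446 (0.378 to 0.524) and 0.488 (0.413 to 0.575) against eIF3, although eif4enif1, which is in that group, lay above all genes at 0.86 and 0.63. EIF1AD, a nuclear protein gene with an eIF1A-like domain that the symbol rule takes in, had 5 against 268 and 9 against 285 counts, 2.98-fold lower (1.26 to 9.26) and 2.15-fold lower (1.12 to 4.76). The gene eif5a had 267 RIP-seq counts under each label against 10343 and 10162, 2.16-fold lower (1.91 to 2.44) and 2.59-fold lower (2.29 to 2.93). Its call with the wild-type label was lost with upper-quartile factors and when the leading features were left out of the totals, as was that of eif4a1b. For eIF5A as a group the odds ratios against eIF3 were 0.441 (0.401 to 0.485) and 0.527 (0.481 to 0.575).

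EIF4E2 had no RIP-seq count under either label, beside 223 and 179 RNA-seq counts. Against a floor of 3 counts per library this was at least 4.14-fold lower under the wild-type label and at least 4.06-fold lower with the mutant label. Its relative eif4e2rs1, with 367 and 436 RNA-seq counts, had 11 and 17 in RIP-seq. The canonical gene EIF4E had 9 RIP-seq counts under each label, 2.39-fold lower (1.24 to 5.26) under the wild-type label, 3.53-fold lower (1.84 to 7.76) under the mutant one. The eIF4E group stood at odds ratios of 0.507 (0.400 to 0.636) and 0.564 (0.456 to 0.691) against eIF3. A zero also stood behind 1 call in eIF3: the minor subunit h gene EIF3H (ENSDARG00000036116) had 0 against 94 counts with the wild-type label, which is at least 1.74-fold lower against the floor and so not shown to pass 2-fold, and 3 against 117 with the mutant label, 2.65-fold lower (0.885 to 13.0). Its major copy, ENSDARG00000102452, had 70 against 2224 and 82 against 2247 counts, 1.77-fold lower (1.39 to 2.28) and 1.86-fold lower (1.49 to 2.35).

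Some genes were called lower under a single label. EIF4H, a cofactor of eIF4A, had 61 against 2586 counts with the wild-type label, 2.36-fold lower (1.83 to 3.09), and 101 against 2547 with the mutant label, 1.71-fold lower (1.4 to 2.11). With the mutant label, EIF2S2 had 115 against 4063 counts and was 2.4-fold lower (1.99 to 2.92), and with the wild-type label it had 176 against 3792 and was 1.2-fold lower (1.03 to 1.4). The gamma subunit gene EIF2S3B, with 246 against 4336 and 189 against 4138 counts in the same order, was 1.2-fold lower (1.05 to 1.37), then 1.22-fold lower (1.05 to 1.42), so subunit genes of eIF2 stood at unlike ratios under the mutant label. The calls for EIF2B1 at 11 against 325, EIF2B3 at 12 against 450, EIF4E3 at 6 against 369, eif4ebp3 (ENSDARG00000054916) at 1 against 85 and EIF3E at 2 against 150, all with the mutant label, rest on at most 12 RIP-seq counts. EIF3E was 5.1-fold lower (1.39 to 42.5) there and eif4ebp3 5.78-fold lower (1.01 to 231). Those for EIF2B1 and eif4ebp3, and those for EIF1AD and EIF3J (ENSDARG00000012603) under the same label, were lost with upper-quartile factors. The calls for EIF2B1 and eif4ebp3 were also lost with DESeq2 size factors, and the interval of eif4ebp3 reached equality under both scalings. Whether the labels differ for these genes was not tested.

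The eIF3 genes spread widely between these sides, and the spread was partly shared by the 2 labels. EIF3CL, the symbol for subunit c, stood at 1.59 (1.44 to 1.75) and 1.64 (1.48 to 1.8) against the other eIF3 genes summed, and EIF3D, a subunit that binds the cap of some mRNAs in human cells, at 1.3 (1.15 to 1.46) and 1.3 (1.15 to 1.47). At the other end were the genes of the loosely bound subunit j: EIF3J (ENSDARG00000053370), with 10 against 705 and 11 against 676 counts, stood at 0.227 (0.108 to 0.420) and 0.255 (0.127 to 0.460) and EIF3J (ENSDARG00000012603), with 7 against 434 and 15 against 463 counts, at 0.259 (0.103 to 0.539) and 0.511 (0.283 to 0.852). EIF3H (ENSDARG00000102452) and EIF3L were below 1 under both labels as well, at 0.498 (0.385 to 0.633) and 0.566 (0.447 to 0.708) and at 0.786 (0.669 to 0.919) and 0.783 (0.668 to 0.914). EIF3A stood at 0.649 (0.581 to 0.723) under the wild-type label but 1.14 (1.04 to 1.25) under the mutant label, on opposite sides of 1. EIF3F was at 0.896 (0.752 to 1.06) and 0.452 (0.358 to 0.566), with 151 against 2711 and 82 against 2780 counts, and was called lower with the mutant label. The difference between labels for these genes has no replicate check.

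**Figure D4:**
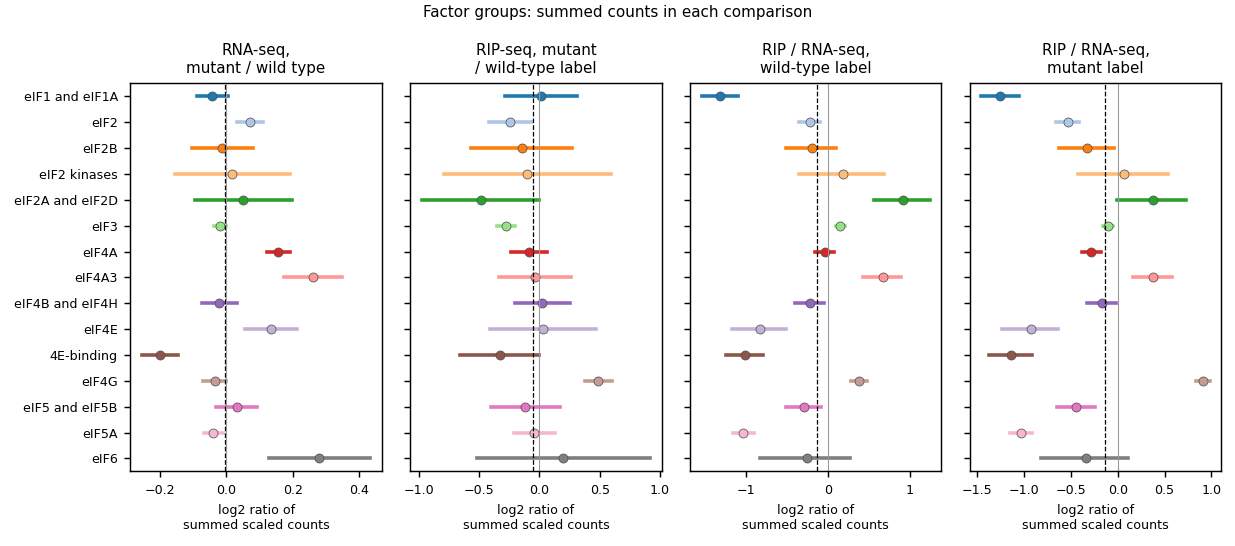
Log2 ratio of the summed scaled counts of each factor group in the 4 comparisons, with 95% counting intervals; the dashed line is the median of all genes compared, the grey line equality, and the x scales differ between panels. In RNA-seq eIF4A, eIF4A3, eIF4E and eIF6 lie right of all genes and the 4E-binding group left. In both RIP-seq over RNA-seq panels eIF4G, eIF4A3 and eIF2A with eIF2D lie right and eIF1 with eIF1A, eIF4E, the 4E-binding group and eIF5A left. The group of eIF2A and eIF2D lies right through EIF2A. EIF2D alone was at -0.46 and -0.13 with the wild-type and the mutant label, beside medians of -0.13 and -0.14 over all genes.

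Zebrafish has several genes for many factors, and copies of one factor can be set against each other without a scaling factor. In RNA-seq, 16 pairs of copies had at least 20 counts in each gene, and 3 had odds ratios whose intervals excluded 1, none of them by 1.5-fold. These were eif4a1a against eif4a1b at 1.11 (1.04 to 1.17), EIF4A2 against eif4a1a at 1.2 (1.04 to 1.39), and eif4e2rs1 against EIF4E2 at 1.48 (1.15 to 1.9). In the RIP-seq pair 5 of 10 such pairs excluded 1, and in RIP-seq over RNA-seq 4 of 16 did so under the wild-type label, and 8 of 16 under the mutant one. Reads that aligned to several places, as those shared by near-identical copies can, were not counted to genes, so values of single copies are uncertain.

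The pair eif4a1a and eif4a1b differed in the same direction under both labels. The gene eif4a1a had 573 RIP-seq counts against 9384 in RNA-seq and 685 against 10648, and eif4a1b had 75 against 2782 and 58 against 2856. The odds ratio of RIP-seq over RNA-seq was 2.26 (1.77 to 2.93) under the wild-type label, and 3.17 (2.41 to 4.23) under the mutant one, so eif4a1a took the larger RIP-seq share for its RNA-seq counts in both. EIF4E2 against eif4e2rs1 was the other pair beyond 1.5-fold under both labels, through the zeros of EIF4E2, with upper bounds of 0.664 and 0.599. Further pairs had intervals that excluded 1 with a bound under 1.5-fold. EIF4G3 (ENSDARG00000074331) against ENSDARG00000077215 was 0.961 (0.641 to 1.46) under the wild-type label, and 1.69 (1.19 to 2.43) under the mutant one. EIF5A2 against eif5a was 1.13 (0.941 to 1.34) and 1.59 (1.35 to 1.87), and EIF4B against eif4ba 0.989 (0.674 to 1.49) and 2.14 (1.35 to 3.56). The copies of EIF1 with EIF1B, of EIF4G2 and of EIF3J had intervals that included 1 under both labels.

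**Figure D5:**
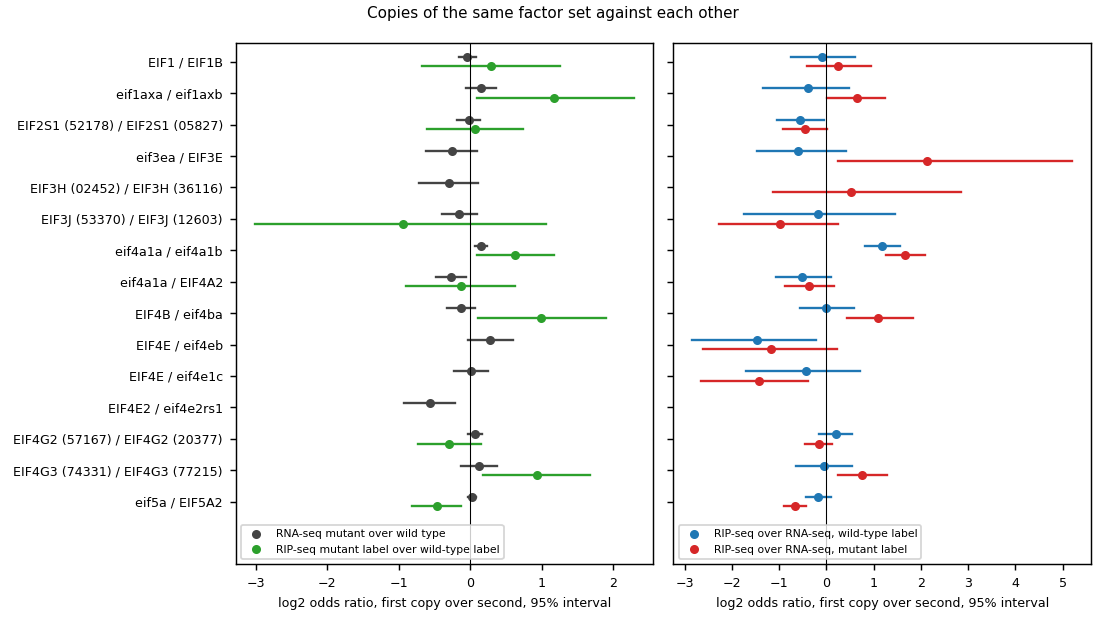
Log2 odds ratio of the first named copy over the second, with 95% exact conditional intervals, between genotype labels (left) and for RIP-seq over RNA-seq under each label (right). Pairs with under 20 counts in a gene, pairs with an unbounded estimate (EIF4E2 / eif4e2rs1 and, with the wild-type label, the EIF3H copies, right panel) and the EIF4EBP3 copies are not drawn. The eif4a1a / eif4a1b pair lies right of 0 in all 4 comparisons.

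Genes that work with the initiation factors were read from 6 lists in RNA-seq: poly(A)-binding proteins and partners (5 genes), regulators of eIF4E and eIF4A (12), an mTORC1 list (12), the integrated stress response downstream of the eIF2 kinases (9), recycling and hypusine genes (4) and elongation and release factors (14 compared of 18). The mTORC1 list held mTORC1 subunits, its regulators and ribosomal S6 kinase genes, with RPS6KA3 among the last. None of the genes in the 6 lists was called higher in mutant RNA-seq and 1 was called lower, against 2.16% and 2.6% of all genes. The called gene was EEF2 (ENSDARG00000035256), an elongation factor gene with 739 and 312 counts, 2.37-fold lower (2.08 to 2.72). Of the related eEF2 genes, eef2b had 44221 and 35896 counts and was 1.23-fold lower (1.22 to 1.25), and eef2a.1 had 395 and 695 counts and was 1.76-fold higher (1.55 to 1.99). The elongation and release list had a median log2 ratio of -0.15, with 5 of 14 intervals below equality and 2 above, against 15.2% and 13.6% of all genes. The corresponding medians were 0.03 for the initiation factors and -0.01 for 81 ribosomal protein genes.

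In the stress response list, which acts downstream of the eIF2 kinases, 4 of 9 genes had intervals below equality and 1 above, against 15.2% and 13.6% of all genes, and the list's median log2 ratio was -0.24. CHAC1, a target of the stress-induced transcription factor ATF4, had 949 and 583 counts and was 1.63-fold lower (1.47 to 1.81), and ATF3 had 117 and 75 counts and was 1.56-fold lower (1.16 to 2.12). The phosphatase subunit gene ppp1r15a, whose product removes phosphate from eIF2 alpha, was the higher one, with 186 and 276 counts, 1.48-fold higher (1.23 to 1.79). Among eIF4E regulators, the kinase gene mknk1, which acts on eIF4E bound to eIF4G, had 220 and 143 counts and was 1.54-fold lower (1.24 to 1.92), and the MKNK2 gene ENSDARG00000015164 had 958 and 1279 counts and was 1.33-fold higher (1.22 to 1.45). In the list of eIF4E and eIF4A regulators, pdcd4a, ddx3xa, ddx3xb and CYFIP2 also had intervals below equality. No gene of that list other than this MKNK2 gene had an interval above. Of all genes, 15.2% lay below and 13.6% above. Of the poly(A)-binding protein genes, which bridge the mRNA tail to eIF4G, 3 had intervals below equality, out of 5 genes in their list, against 15.2% of all genes. The gene pabpc1a had 17224 and 16740 counts and was 1.03-fold lower (1.01 to 1.05), while PABPC4 with 1954 and 1473 counts was 1.33-fold lower (1.24 to 1.42) and pabpc1b with 827 and 600 counts was 1.38-fold lower (1.24 to 1.54).

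In the RIP-seq pair, the mTORC1 list held 3 called higher of 11 compared and none lower, against 8.37% and 5.3% of all genes. MTOR, the kinase itself, had 46 and 224 counts and was 3.97-fold higher (2.88 to 5.58), RPTOR had 17 and 45 counts and was 2.16-fold higher (1.21 to 4.03), and TSC1 (ENSDARG00000057918) had 19 and 59 counts and was 2.53-fold higher (1.49 to 4.5). In mutant RNA-seq MTOR was 1.23-fold lower (1.11 to 1.37). In the other lists, CYFIP2 was called higher in the RIP-seq pair, with 24 and 60 counts. Called lower there were pabpc1b with 28 and 14 counts, mknk1 with 12 and 2, and DENR with 72 and 42. Values of the genes in these 6 lists are given under the main scaling only, in RNA-seq and RIP-seq alike. Against RNA-seq, ribosomal protein genes lay further down than initiation factors, with medians relative to all genes of -0.92 and -1.39, beside -0.15 and -0.26 for the initiation factors. Of 80 ribosomal protein genes 45 and 59 were called lower with the wild-type and the mutant label, against 14.1% and 16.2% of all genes, and elongation and release factors lay at 0.12 and -0.46. Transcript lengths were not analysed here, so none of these differences is corrected for length.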

How the data were processed

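Each library came as a deposited file of raw, unnormalised read counts on 31953 Ensembl gene rows. Per the submitters' processing notes, TopHat2 2.2.1, Bowtie2 2.2.3 and HTSeq 0.6.1p1 were used with the build GRCz10. The labels' protocols describe an Illumina TruSeq kit with oligo(dT) enrichment. The 5 summary rows that HTSeq adds were left out, and records aligned to several places, 8.42 to 11.2% in RNA-seq and 89.5 to 91.8% in RIP-seq, were not counted to genes. Strand setting and annotation release were not stated, so reads of overlapping or antisense genes are uncertain.

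Symbols came from a table that matched 26121 gene IDs. TMM factors (edgeR 4.0.16, R 4.3.3) were computed within every pair of libraries, genes with at least 1 CPM in either library were compared, and ratios were given with 95% exact conditional (Clopper-Pearson) intervals. Medians used a prior count of 0.5. Odds ratios of summed counts, and those between copies, came from the raw counts with exact conditional intervals and used no scaling factor. A fold against 0 counts used a floor of 3 counts per library. Intervals and floors describe counting error only, since PCR reads lacking molecular identifiers do not count independent molecules. The scripts were tested on simulated data. Python 3.11.15, numpy 2.4.6, pandas 2.3.3, scipy 1.17.1 and DESeq2 1.42.0 (an alternative) were used.

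The members, gene lists and tests were chosen with earlier results of these data known. By rule, members were named if called, or if among the 4 highest or 4 lowest of a comparison by the interval bound nearest to equality. The member with the most RNA-seq counts in each group was added. Some of these have values given for only part of the libraries. EIF2B4, of the eIF2B group, is covered only by the range of counts of that group. Other members named, genes of the pathway lists that were not called in RNA-seq, the odds ratios against eIF3, the 1.5-fold window and the counts kept across scalings were chosen after values were seen. EIF4E itself was placed in the cap-binding group. The symbols paip2, paip2a, atf4a and mcts1 were not found in the symbol table. Sequences and gene or protein lengths were not used here. Alternatives changed the scaling, the filter (none, or 5 CPM), the size (4-fold, or 2-fold passed by the whole interval) and the membership, as factors proper without kinases, 4E-binding proteins, eIF4A3, eIF1AD and eIF5A.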

Additional observations from a re-analysis of the deposited data

Results flagged for a closer look

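For 5 members the interval lay on opposite sides of equality in the RNA-seq and the RIP-seq comparison of mutant with wild-type label. Such genes were not counted over all genes, so this number is not shown to be particular to the members. The ratio of EIF2S2 was 1.07 in RNA-seq and 0.533 in RIP-seq, and that of EIF3G 1.09 and 0.613. EIF3A went the other way, at 0.963 in RNA-seq and 1.29 in RIP-seq. So did EIF4G2 (ENSDARG00000020377), at 0.947 and 1.37, and EIF4G3 (ENSDARG00000074331), at 0.89 and 1.82. Other scalings took some of these sides away. With total counts the RNA-seq intervals of EIF3A, EIF4G2 (ENSDARG00000020377) and EIF4G3 (ENSDARG00000074331) reached equality, that of EIF4G2 with upper-quartile factors too, and without the leading features the RIP-seq intervals of EIF3A and this EIF4G2 gene did. EIF2S2 and EIF3G kept both sides. Their RNA-seq side was above equality and could not be lost, because these scalings left RNA-seq ratios unchanged or raised them. The sides kept therefore do not compare the stability of these 5 members. Among eIF3 genes, EIF3A stood on opposite sides of the other subunits in RIP-seq over RNA-seq, with an odds ratio of 0.649 under the wild-type label but 1.14 under the mutant one. With 1 library per group, none of these differences between assays or labels was tested.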

How the results depend on the processing

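No paired analysis was possible because each group had 1 library and the labels give no replicate numbers, and no library could be left out. Of 112 summary values under the alternatives, 90 stayed within 1.5 times the reported count or within the reported spread and 22 moved. No alternative moved the called counts or the median of mutant over wild-type RNA-seq. The split of intervals, which is not among these summaries, went from 13 above and 11 below equality to 22 and 4 with total counts. In the RIP-seq pair, 2 members were called lower with total counts. Leaving the 5 leading features out of the totals gave 0 higher and 8 lower, a 4-fold size 0 higher and 1 lower, and a whole interval beyond 2-fold 0 and 0. In RIP-seq over RNA-seq with the wild-type label, total counts gave 0 higher, 59 lower and a median log2 ratio of -2.11, beside -2.04 over all genes. Totals without leading features gave 4 higher, a 4-fold size 0 higher and 3 lower, a whole interval beyond 2-fold 0 higher and 6 lower, and the factors proper 1 higher. With the mutant label, total counts gave 0 higher, 59 lower and a median of -2.19, beside -2.02 over all genes, a 4-fold size 0 higher and 7 lower, and a whole interval beyond 2-fold 7 lower. With total counts, 4 called ratios of RIP-seq over RNA-seq turned below equality: eif2ak1 to 0.710 and EIF2A to 0.702 with the wild-type label, and EIF4G1 to 0.759 and EIF4G3 (ENSDARG00000077215) to 0.594 with the mutant label. All genes shift together under that scaling. RIP-seq depth limits members with few counts, such as EIF4E2 at 0 and EIF3E at 2.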
